A study of Danio rerio with 6 samples.

Results

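Ciliated olfactory sensory neurons turn an odorant into an electrical signal through a short cascade in the membrane of their cilia. An odorant receptor activates the olfactory G protein, whose alpha subunit is encoded by gnal. That subunit activates adenylyl cyclase type 3 (ADCY3), and the cyclic AMP it makes opens a cyclic nucleotide-gated cation channel to which cnga4 and cngb1b contribute subunits. In mammals, calcium that enters through this channel opens a chloride channel, and phosphodiesterases, receptor kinases and calmodulin then end the response. OMP, the olfactory marker protein, is a small cytosolic protein of mature olfactory neurons and in mouse modulates cyclic AMP signalling in them.

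The cascade is described here through 6 genes, called its members, of the 32469 gene rows in the count files, chosen by symbol or Ensembl identifier: OMP (ENSDARG00000032380), gnal (ENSDARG00000045415), cnga4 (ENSDARG00000069383), cngb1b (ENSDARG00000042107) and the pair of genes named ADCY3 (ENSDARG00000017437 and ENSDARG00000077145). All 6 were among the 18271 genes with enough counts for the test. Gene lengths were not used here, so levels are compared between samples and not between genes.

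RNA came from cells of zebrafish larvae at 5 days post fertilization that carried the transgenes OMP-Gal4 and UAS-GCaMP1.6, in which the OMP promoter drives a green fluorescent calcium sensor by way of Gal4. The larvae were raised at 28 °C. From an age of 16 to 20 hours post fertilization onward they were kept either in 100 µM gallein or in the solvent DMSO, with medium renewed every 24 hours. Gallein is a compound known to block G protein beta-gamma signalling. Heads were dissociated, cells were sorted by green fluorescence, and polyadenylated RNA was sequenced. Each group, control (DMSO) and gallein, held 3 samples that the labels call biological replicates. The number of larvae behind a sample is not given in the sources used here.

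Gene counts ranged from 30822664 to 40295728 per library. Levels are counts per 1000000 counts (CPM) after trimmed-mean (TMM) scaling, whose factors ran from 0.640 to 1.45. When the sorted label was checked against these genes, 1 library nearly lacked 4 of the 6. In gallein replicate 2, OMP had 4 counts, cnga4 had 2, and cngb1b and ADCY3 ENSDARG00000017437 had 0. A count of 0 in that library allows up to 0.145 CPM, a limit that covers counting error only. The same library had 22.3% of its total in alignments that were not unique, against 9.54% to 16.0% in the other 5 libraries. For each cascade gene the log2 fold change and the ratio to OMP are therefore also given without it.

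All 6 genes had lower mean levels in gallein than in control, and none passed the test. The log2 fold changes ran from -2.16 for cngb1b to -0.57 for ADCY3 ENSDARG00000077145, with a median of -1.32 against 0.07 for all genes tested. By edgeR's quasi-likelihood test with Benjamini-Hochberg adjustment over all 18271 genes, 0 members rose and 0 fell, and their adjusted p ran from 0.799 to 0.917. The background was the same, with 0 genes (0%) called lower and 0 (0%) called higher, while 451 genes (2.47%) were lower and 736 (4.03%) higher at an unadjusted p under 0.05. None of the members was among those, their lowest unadjusted p being 0.139. DESeq2 called 47 genes lower (0.234%) and 69 higher (0.343%), with 0 members among them, and limma-voom called 0 in either direction. At the spread between these libraries the edgeR test did not call even large changes in simulated data. A p above the threshold thus does not show that a level did not differ. The 95% intervals below give the sizes allowed by the TMM-scaled fit, and leave out uncertainty in the scaling itself. Scaled by spike-in RNA instead, ADCY3 ENSDARG00000077145 had a log2 fold change of -2.55, outside its TMM interval of -2.10 to 0.96.

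In 3 of the 6 genes (OMP, cngb1b and ADCY3 ENSDARG00000017437) every gallein sample lay below every control, a pattern seen in 954 of the 18271 genes tested (5.22%). Without gallein replicate 2 the same pattern held for 4 of the 6, with ADCY3 ENSDARG00000077145 added, against 10.1% of genes in that comparison. With all libraries, every gallein sample lay above every control for 0 members and for 3.81% of genes. In bulk samples, fewer cells of a type and less RNA per cell cannot be told apart, and this holds for every level given here.

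The summed level of the 6 genes was 60.0, 58.0 and 60.0 CPM in control replicates 1 to 3 and 26.1, 16.3 and 37.4 CPM in gallein replicates 1 to 3. The control libraries lay close together (59.4 ± 1.16 CPM, SD, n = 3), and all 3 gallein libraries lay below them (26.6 ± 10.6 CPM, SD, n = 3). The narrow control range came with TMM scaling: as counts per 1000000 gene counts with no further scaling, the same sums were 62.7, 84.1 and 74.8 in controls and 18.0, 10.4 and 44.7 in gallein.

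**Figure D1:**
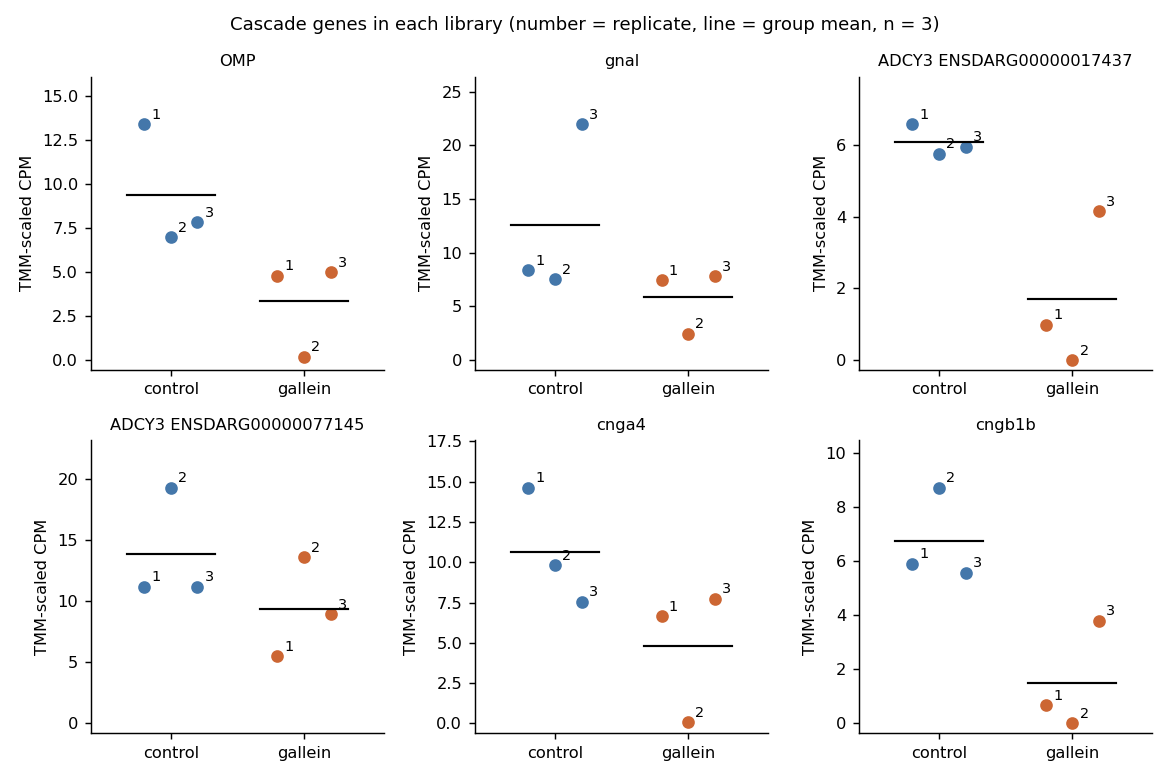
Levels of the 6 cascade genes in TMM-scaled CPM, 1 panel per gene, with each point 1 library, its replicate number beside it and a line at the mean of 3. Gallein replicate 2 is at or near 0 for OMP, cnga4, cngb1b and ADCY3 ENSDARG00000017437, at 2.46 CPM for gnal and at 13.6 CPM for ADCY3 ENSDARG00000077145.

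OMP carries the name of the promoter in the sorted reporter, but its symbol belongs to more than 1 zebrafish identifier, and which copy the promoter comes from is not given in the sources used here. The gene counted here had levels of 13.4, 6.97 and 7.81 CPM in the controls, given here and below in the order of replicates 1 to 3. The gallein libraries had 4.79, 0.193 and 4.99 CPM. The groups did not overlap, and gallein replicates 1 and 3 were close to each other while replicate 2 lay far below. The log2 fold change was -1.49 ± 1.04 (SE, 95% interval -3.79 to 0.80, edgeR adjusted p = 0.822). Without gallein replicate 2 it was -0.94 (adjusted p = 0.866).

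The G protein alpha subunit gene gnal was at 8.36, 7.51 and 22.0 CPM in controls and at 7.42, 2.46 and 7.84 CPM in gallein. Control replicate 3 stood above the other 5 libraries, and gallein replicates 1 and 3 lay beside control replicates 1 and 2, so the groups overlapped. The log2 fold change was -1.09 ± 0.79 (SE, 95% interval -2.84 to 0.66, edgeR adjusted p = 0.828). Leaving out control replicate 3 gave -0.42 (adjusted p = 0.999), and leaving out gallein replicate 2 gave -0.73 (adjusted p = 0.922).

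A similar gene, gnal2 (ENSDARG00000075850), which lies outside the 6 and was looked at after its values were seen, was at 3.12, 7.69 and 4.20 CPM in controls and at 4.60, 4.43 and 9.17 CPM in gallein. Its groups overlapped, and edgeR gave 0.28 ± 0.78 on the log2 scale (SE, adjusted p = 0.97). Alignments that were not unique were counted apart from the genes. Reads shared by the pair may thus be missing from both, so values of either gene alone are uncertain. With the counts of gnal2 added to gnal, an alternative chosen after seeing the data, the log2 fold change was -0.56 ± 0.69 (SE, edgeR adjusted p = 0.920). Adding the counts does not recover reads left out of both genes. Leaving gallein replicate 2 out of that sum gave -0.28 (adjusted p = 0.978).

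The genes named ADCY3, the cyclase that makes cyclic AMP in olfactory cilia, differed in pattern. ADCY3 ENSDARG00000017437 was at 6.57, 5.75 and 5.95 CPM in controls, which lay close together (6.09 ± 0.430 CPM, SD, n = 3). In gallein it was at 0.989, 0 and 4.15 CPM, with all 3 libraries below the controls and replicate 3 well above the other two. The log2 fold change was -1.82 ± 1.33 (SE, 95% interval -4.76 to 1.13, edgeR adjusted p = 0.828), which became -3.60 when gallein replicate 3 was left out (adjusted p = 0.428) and -1.24 when replicate 2 was (adjusted p = 0.853).

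ADCY3 ENSDARG00000077145 was at 11.2, 19.3 and 11.2 CPM in controls and at 5.52, 13.6 and 8.90 CPM in gallein. Here gallein replicate 2 was the highest gallein library and lay above control replicates 1 and 3, so the groups overlapped. The log2 fold change was -0.57 ± 0.69 (SE, 95% interval -2.10 to 0.96, edgeR adjusted p = 0.917). The value moved to -0.94 with gallein replicate 2 left out (adjusted p = 0.856), to -0.30 with gallein replicate 1 left out (0.956) and to -0.26 with control replicate 2 left out (1.00).

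Gallein replicate 2 held 282 counts of this gene and none of the other ADCY3. In the controls there were 0.589, 0.299 and 0.532 counts of ENSDARG00000017437 per count of ENSDARG00000077145, and in gallein 0.179, 0 and 0.466. Gallein replicates 1 and 2 lay below all controls in this ratio and replicate 3 lay within their range. With the counts of the pair summed, also chosen after seeing the data, the log2 fold change was -0.85 ± 0.66 (SE, edgeR adjusted p = 0.835). Leaving gallein replicate 2 out of that sum gave -1.03 (adjusted p = 0.842).

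Of the channel genes, cnga4, which encodes a modulatory subunit of the olfactory channel in mammals, was at 14.6, 9.81 and 7.56 CPM in controls and at 6.66, 0.0963 and 7.74 CPM in gallein. Gallein replicate 3 lay just above control replicate 3, so the groups overlapped. The log2 fold change was -1.14 ± 1.12 (SE, 95% interval -3.63 to 1.35, edgeR adjusted p = 0.882), and leaving out gallein replicate 2 took it to -0.57 (adjusted p = 0.935).

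The other channel gene, cngb1b, is named as 1 of the zebrafish copies of CNGB1, which in mammals serves rod photoreceptors as well as olfactory neurons. It was at 5.92, 8.73 and 5.58 CPM in controls and at 0.685, 0 and 3.80 CPM in gallein. All gallein libraries lay below the controls, and replicate 3 was the closest to them. Its log2 fold change was the lowest of the 6 genes at -2.16 ± 1.35 (SE, 95% interval -5.15 to 0.83, edgeR adjusted p = 0.799). Leaving out gallein replicate 3 gave -4.26 (adjusted p = 0.419), and leaving out gallein replicate 2 gave -1.58 (adjusted p = 0.804).

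The copy cngb1a (ENSDARG00000068242) was at 0.353, 3.70 and 0.945 CPM in controls and at 1.86, 0 and 0.136 CPM in gallein, in overlapping groups. It had 216 counts in control replicate 2 and 14 and 41 in control replicates 1 and 3. The summed level of the 20 listed photoreceptor genes was also highest among the controls in replicate 2, at 14568 CPM. It was 2133 and 3189 CPM in control replicates 1 and 3. Of the sum in replicate 2, ARR3 held 7043 CPM and GNAT2 4698 CPM. By gene, opn1sw2 and CNGA3 (ENSDARG00000012297) were highest in control replicate 1, crx and CRX (ENSDARG00000043483) in replicate 3, and the others in replicate 2. The part of such cells in the values of cngb1a and cngb1b was not tested.

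Counts set against OMP in the same library do not depend on the scaling factor. The groups overlapped in all 5 ratios. There were 1.09, 1.41 and 0.968 cnga4 counts per OMP count in controls, a range of 1.46-fold, and 1.39, 0.5 and 1.55 in gallein, where replicate 2 lay below all controls, on 2 and 4 counts, and replicate 3 above them. The log2 ratio, with 0.5 added to each count, differed by -0.11 between groups (two-sided exact permutation p = 0.9 over 3 samples against 3), and by 0.36 in the other direction without gallein replicate 2 (exact permutation p = 0.4). Of the 15 pairs of members, cnga4 and OMP had the highest Pearson correlation of log2(CPM + 1) over the 6 libraries (r = 0.982), given as a description because genes of a library share its scaling and depth. It was 0.897 over the 5 libraries other than gallein replicate 2, where it was no longer the highest. There cngb1b had 0.960 with ADCY3 ENSDARG00000017437 and 0.941 with ADCY3 ENSDARG00000077145.

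Counts of cngb1b per OMP count were 0.443, 1.25 and 0.714 in controls and 0.143, 0 and 0.761 in gallein. Those of ADCY3 ENSDARG00000017437 were 0.492, 0.826 and 0.761 in controls and 0.206, 0 and 0.832 in gallein. For both genes gallein replicates 1 and 2 lay below all controls, and gallein replicate 3 did not. Gallein replicate 1, with 126 OMP and 175 cnga4 counts, held only 18 cngb1b and 26 ADCY3 ENSDARG00000017437 counts.

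The log2 ratio to OMP differed by -1.67 for cngb1b (exact permutation p = 0.3) and by -1.33 for ADCY3 ENSDARG00000017437 (exact permutation p = 0.4), within the spread between libraries. These differences were -1.14 and -0.70 without gallein replicate 2, and -2.53 and -2.15 without gallein replicate 3. The levels of these 2 genes had a Pearson correlation of 0.979 over the 6 libraries and 0.960 without gallein replicate 2.

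For gnal there were 0.625, 1.08 and 2.81 counts per OMP count in controls and 1.55, 12.8 and 1.57 in gallein. Gallein replicate 2 alone lay outside the control range, with 51 gnal and 4 OMP counts. For ADCY3 ENSDARG00000077145 the ratios were 0.834, 2.76 and 1.43 in controls and 1.15, 70.5 and 1.78 in gallein, with replicates 1 and 3 within the control range. The differences of the log2 ratio were 1.29 (exact permutation p = 0.4) and 1.76 (exact permutation p = 0.6). Without gallein replicate 2 they were 0.33 and -0.06. The gnal value was 0.80 without control replicate 1, and that of ADCY3 ENSDARG00000077145 was 2.83 without gallein replicate 1. Adjusted over the 5 ratios, the p-values ran from 0.667 to 0.9, and 3 samples against 3 cannot give a p below 0.1.

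The ratios depended on the gene they were set against. With gnal in place of OMP, the log2 ratio differed by -1.40 for cnga4 (exact permutation p = 0.5), -2.96 for cngb1b (exact permutation p = 0.2), -2.62 for ADCY3 ENSDARG00000017437 (exact permutation p = 0.2) and 0.47 for ADCY3 ENSDARG00000077145 (exact permutation p = 0.7).

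**Figure D2:**
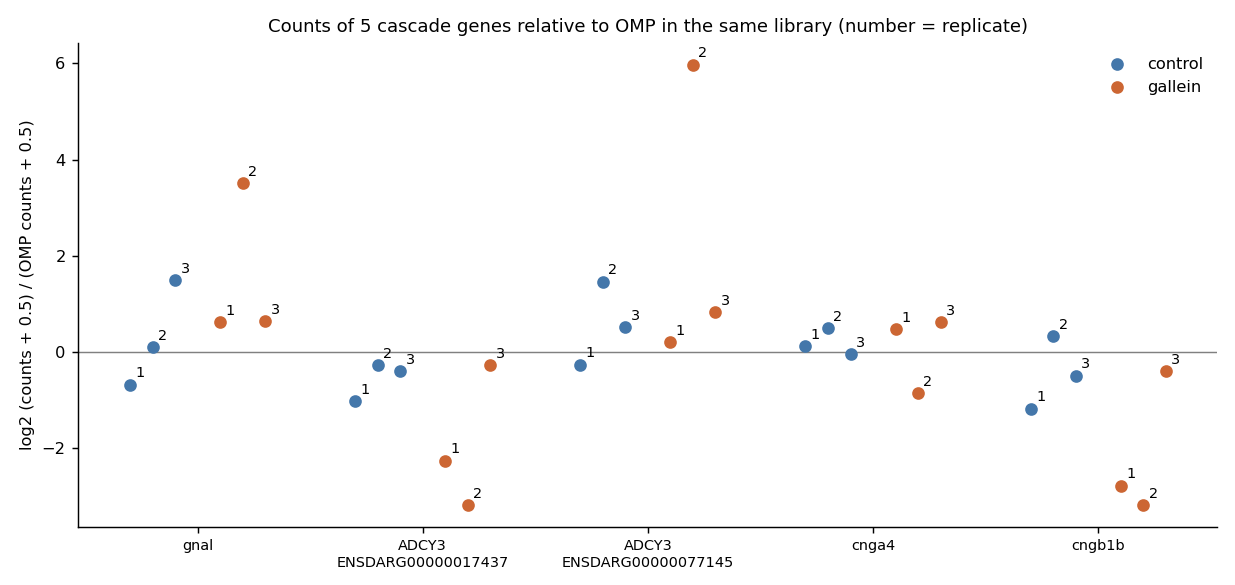
Log2 ratio of counts of each gene to OMP counts in the same library, with 0.5 added to both, by group and replicate number. All ratios of gallein replicate 2 rest on 4 OMP counts. For cnga4 that library lies below the controls and gallein replicate 3 above them, the cngb1b and ADCY3 ENSDARG00000017437 points of gallein replicates 1 and 2 lie below the controls, and gallein replicate 2 lies above them for gnal and ADCY3 ENSDARG00000077145.

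As a share of the counts of the 6 genes in a library, ADCY3 ENSDARG00000077145 took 18.6%, 33.2% and 18.6% in controls and 21.2%, 83.2% and 23.8% in gallein. Of the 339 member counts in gallein replicate 2, this gene and gnal thus supplied all but 6. Correlations of this gene's level with those of the other 5 members ran from -0.139 to 0.411 over the 6 libraries, and from 0.101 to 0.941 without gallein replicate 2. Among the other 5 members the range was 0.674 to 0.982 with that library and -0.218 to 0.960 without it.

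Other genes of the pathway, listed by role, had values of either sign. Of 44 listed names, 26 gene rows were found and 24 were tested, with 0 rising and 0 falling by edgeR. Their median log2 fold change was -0.26, with 17 negative values of 24, against 47.3% negative among all genes tested. Leaving out gallein replicate 2 gave a median of -0.325, and leaving out gallein replicate 3 gave -0.88. Leaving out control replicate 3 or 2 gave -0.10 or -0.12. In 2 of the 24 every gallein sample lay below every control, and in 0 every one lay above, against 5.22% and 3.81% of all genes tested. Of these 2, STOML3 passed the filter on counts through its controls alone, and these counts show nothing particular to the partners. Names of cnga2, the principal channel subunit gene in mammals, were among those listed, but no gene row carried them, so no value is given. Not every gene row has a symbol, so this does not show that the gene was absent.

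Of the G protein and cyclase partners, 0 of 6 rose or fell, and the median was -0.22. GNG13 (ENSDARG00000037921), a gamma subunit of olfactory neurons in mouse, was at 186, 86.9 and 2158 CPM in controls and at 198, 139 and 86.7 CPM in gallein, and its log2 fold change of -2.52 rested on control replicate 3, being 0.05 without it. RIC8B, an exchange factor and chaperone for the olfactory alpha subunit in mouse, was at 17.1, 5.75 and 18.6 CPM in controls and at 7.19, 24.4 and 4.91 CPM in gallein. Its groups overlapped, and gallein replicate 2 held the highest level of all libraries.

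Of the chloride and calcium partners, 0 of 5 tested genes rose or fell, and the median was -0.05. The chloride channel gene ano2a was at 6.35, 16.0 and 3.90 CPM in controls and at 3.92, 3.08 and 9.28 CPM in gallein, in overlapping groups (log2 fold change -0.68 ± 0.84, SE, edgeR adjusted p = 0.917). A sodium-calcium exchanger gene named SLC8A1 (ENSDARG00000043406) was at 11.0, 10.4 and 33.7 CPM in controls and at 7.80, 2.22 and 13.8 CPM in gallein, also overlapping (-1.20 ± 0.85, SE, edgeR adjusted p = 0.826). Another gene of that name (ENSDARG00000013422) had the opposite sign, at 0.151, 1.80 and 0.323 CPM in controls and at 0, 0.963 and 10.4 CPM in gallein (2.32 ± 1.74, SE, edgeR adjusted p = 0.834), with gallein replicate 3 far above the rest. The calcium pump gene atp2b2 was at 7.08, 6.88 and 22.9 CPM in controls and at 7.27, 1.01 and 48.3 CPM in gallein (0.62 ± 1.14, SE, edgeR adjusted p = 0.953). Among the genes that end the response, 0 of 8 rose or fell, and the median was 0.12, with values from -1.18 for PDE4A, a phosphodiesterase, to 0.76 for a gene named ARRB2 (ENSDARG00000039215), an arrestin.

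The 4 tested genes of the cilium membrane and of receptor trafficking were all negative, against 47.3% of all genes tested, and 0 passed the threshold. Their median was -1.27. Without STOML3, described below, the middle value was that of reep1 (-0.46). The gene umodl1 (ENSDARG00000068923), which in mouse is transcribed in olfactory neurons, was at 20.6, 10.1 and 19.3 CPM in controls and at 2.70, 0.193 and 8.96 CPM in gallein. All gallein libraries lay below the controls, and replicate 2 was again the lowest. Its log2 fold change was -2.07 ± 1.08 (SE, edgeR adjusted p = 0.779), which became -1.51 without gallein replicate 2 and -3.52 without gallein replicate 3. A gene named STOML3 (ENSDARG00000057035), a stomatin-like protein of olfactory cilia in mouse, also had non-overlapping groups. Its level was no more than 0.327 CPM in any library. Its counts were 13, 13 and 12 in controls and 1, 0 and 5 in gallein, so it passed the filter on counts through the controls alone. That made a lower gallein level likely in advance, so its sign, its non-overlap and its part in the median do not count as support. Its log2 fold change was -2.09, and those of reep1 and stoml3a were -0.46 and -0.44.

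**Figure D3:**
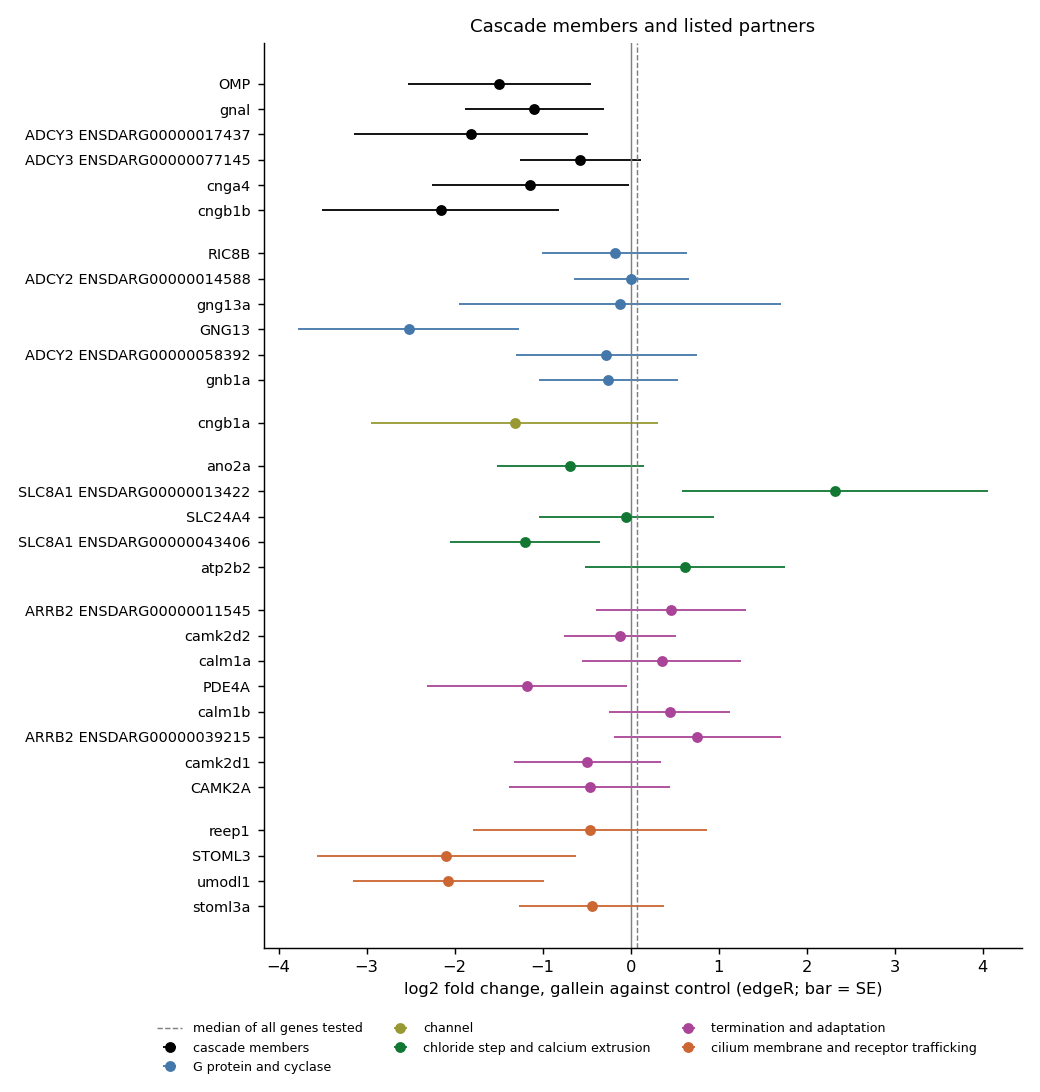
Log2 fold changes of gallein against control by edgeR with SE bars, for the 6 cascade genes (black) and the 24 tested partners coloured by role, with a dashed line at the median of all genes tested (0.07). The members lie between -2.16 and -0.57 and the partners spread on either side of 0.

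The mean profile of the members, taken over their standardised log2(CPM + 1), was 0.59, 0.64 and 0.61 in controls and -0.55, -1.34 and 0.06 in gallein. It averages unlike patterns, since pairs of members had correlations from -0.139 to 0.982. Of the 18265 other tested genes, 7 followed it with a Pearson r of 0.981 or more over the 6 libraries. The 5 of them that ranked highest with a symbol were ZCCHC17 (r = 0.996), APCDD1L (0.985), zgc:194659 (0.983), FA2H (0.981) and PRP4K (0.981). ZCCHC17 was at 24.2, 28.3 and 28.9 CPM in controls and at 8.60, 3.18 and 17.3 CPM in gallein. With 6 libraries and this many genes such values are a description only, and Spearman's rank correlation for the 5 ran from 0.829 to 0.943. Without gallein replicate 2 their r ran from 0.943 to 0.990.

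Genes of other cell types were abundant in the sorted samples, and their part in the member values was not tested. Neuronal genes in general (12 of 12 rows with counts in every library) summed to between 1138 and 1613 CPM in controls and between 1063 and 3131 CPM in gallein, where replicate 2 was the highest library. The library with the lowest OMP level thus had the highest sum of these neuronal genes. Genes of immature olfactory and early neurons (8 of 8 rows) summed to 121 to 207 CPM in controls and 134 to 264 CPM in gallein. Those listed for microvillous and crypt neurons (8 of 9 rows, with ora4 at 0 in gallein replicates 2 and 3) summed to 188 to 357 and 217 to 504 CPM. The highest sum, in gallein replicate 2, held 341 CPM of GNAO1 and 115 and 46.4 CPM of the genes named TP53BP2, while the channel genes trpc2b and TRPM5 of that list were at 0.241 and 0.963 CPM there.

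Photoreceptor genes (18 of 20 rows with counts in every library, with a gene named CNGA1 at 0 in gallein replicate 3) summed to 2133 to 14568 CPM in controls and 694 to 22144 CPM in gallein. The highest sum, in gallein replicate 1, held 20480 CPM of 1 gene, opn1sw2. Lens genes (9 of 9 rows) were at 578 to 1952 and 1282 to 3315 CPM, skeletal muscle genes (11 of 11) at 809 to 3479 and 1300 to 3107 CPM, and skin genes (9 of 9) at 1011 to 7925 and 755 to 6207 CPM. Sustentacular and basal cell genes (6 of 6) were at 195 to 478 and 177 to 1795 CPM, the highest being gallein replicate 1. Erythroid genes (4 of 5, with gata1a at 0 in control replicate 2) were at 6.82 to 33.4 and 4.61 to 165 CPM. Only the myeloid list (4 of 8, with the other 4, lyz among them, at 0 in at least 2 libraries) had gallein sums, 10.1 to 40.2 CPM, that all lay above those of the controls, 4.47 to 7.13 CPM. In 0 of its 4 tested genes did every gallein sample lie above every control, and single rows named MPEG1 gave 24.9 CPM in gallein replicate 1 (ENSDARG00000043093) and 7.76 CPM in replicate 3 (ENSDARG00000055290).

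By gene, 0 markers of any list passed the edgeR test, and no list was tested against the cascade. Values above 0 on the log2 scale were found for 9 of 9 tested lens genes (median 1.00), 5 of 5 erythroid genes (2.14), 4 of 4 myeloid genes (1.83), 9 of 11 skeletal muscle genes (0.68) and 9 of 12 neuronal genes (0.49), beside a median of 0.07 and 47.3% negative values over all genes. The erythroid sum of gallein replicate 3, at 4.61 CPM, lay below all controls. Values below 0 were found for 14 of 20 photoreceptor genes (median -0.78). In the other 4 lists the medians lay between -0.12 and 0.26.

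**Figure D4:**
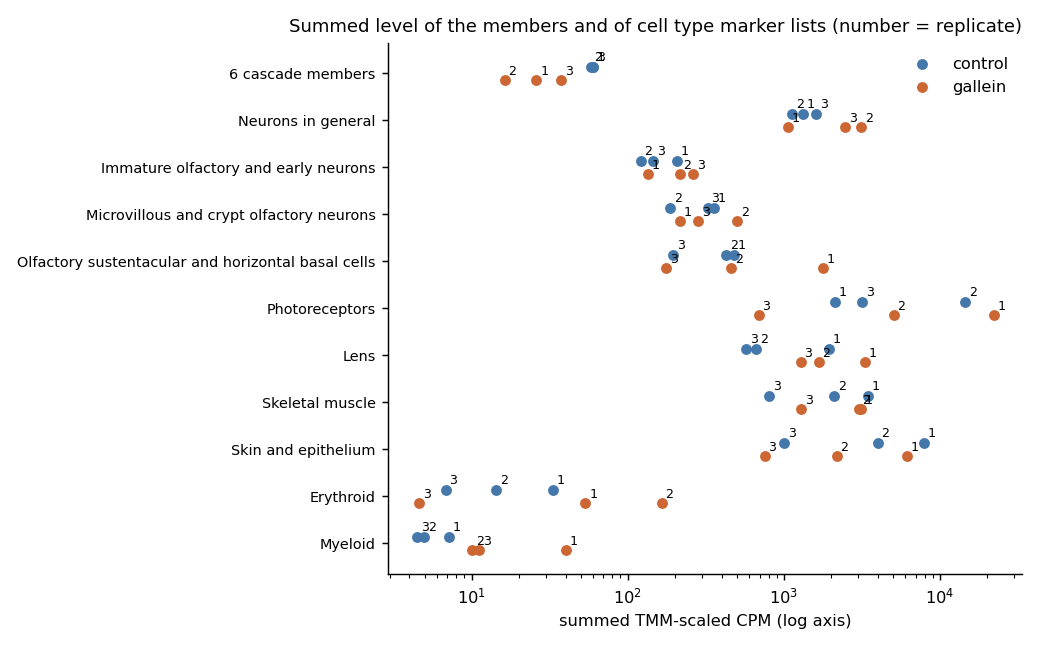
Summed TMM-scaled CPM on a log axis for the 6 cascade genes and for 10 marker lists, with each point 1 library and its replicate number beside it. The cascade sums of the controls sit between 58.0 and 60.0 CPM, above the gallein sums of 16.3 to 37.4 CPM, while the groups overlap for all marker lists but the myeloid one.

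The size of the member differences depended on the scaling. Spike-in RNA took 2.24% to 4.53% of gene and spike-in counts in controls and 5.69% to 9.21% in gallein, in groups that did not overlap. How the spike-in amount was set for each sample is not given in the sources used here. Scaled by spike-in totals, every gallein sample lay below every control for 6 of the 6 members, against 29.9% of all genes tested, and the median of all genes moved to -1.67. The members' log2 fold changes were then -3.39 to -2.49, or -1.72 to -0.82 relative to that median. Without gallein replicate 2 they were -2.80 to -1.91, or -1.29 to -0.40 relative to the median of -1.51 in that fit. Set against 1000000 spike-in counts, OMP stood at 294, 440 and 225 in controls and at 37.3, 1.21 and 99.0 in gallein.

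With library size alone as the scale, the median of all genes was -0.49, and 5 of the 6 members had non-overlapping groups (all but gnal), against 11.3% of genes. The log2 fold changes of the members were -2.36 to -1.21 in that fit, or -1.87 to -0.72 relative to the median. Without gallein replicate 2 they were -1.78 to -0.91, or -1.33 to -0.46 relative to the median of -0.44 in that fit. The median of the 24 partners moved too, from -0.26 to -1.86 with spike-in factors and to -0.80 with library size only. All 6 values were negative under each of these scalings, and the lowest adjusted p of a member was 0.292 with spike-in factors and 0.774 with library size only (edgeR).

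**Figure D5:**
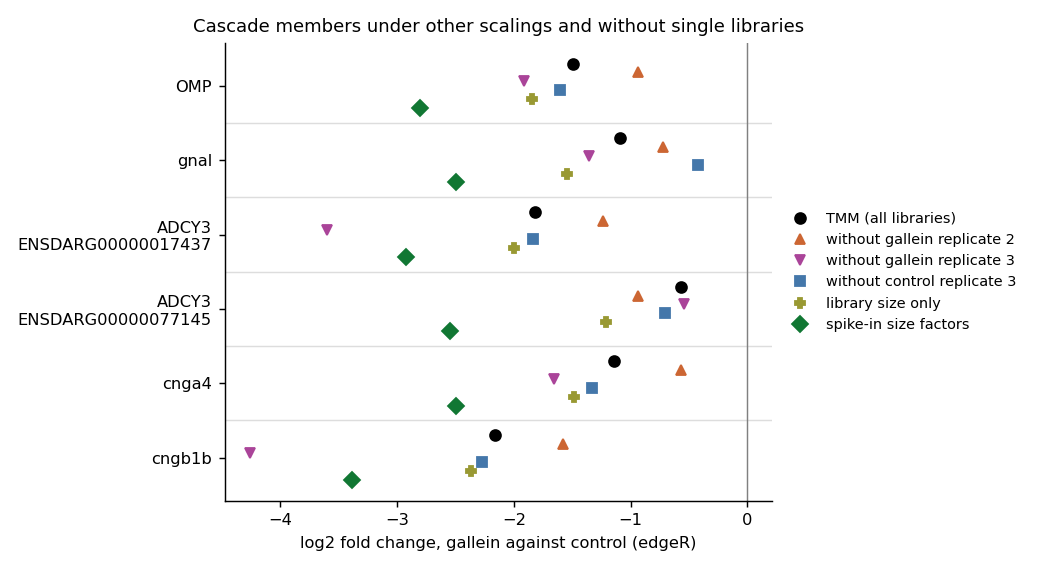
Log2 fold changes of the 6 genes by edgeR with TMM factors and all libraries, without gallein replicate 2 or 3 or control replicate 3, with library size only and with spike-in size factors. All points lie below 0, those with spike-in factors between -3.39 and -2.49, and without gallein replicate 3 the values of cngb1b and ADCY3 ENSDARG00000017437 reach -4.26 and -3.60.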

How the data were processed

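The values that the authors deposited are unnormalised read counts per gene, with 2 files to a sample and 6 samples. The tools and genome build recorded are TopHat2 2.0.4, HTSeq and Zv9, per the submitters' processing notes. Annotation release, counting mode and strand setting are not stated, and reads of overlapping or antisense genes may be mixed. The 2 files of a sample differed by little more than sampling noise (chi-square per gene 1.37 to 1.76, against 426 to 1621 between replicates) and were summed as 1 replicate. The rows without a gene name, 19.4% to 33.9% of a library's total, and 92 spike-in rows were kept out of the tests. Symbols were known for 20734 of the 32469 gene identifiers.

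The test of each gene was the robust quasi-likelihood F test of edgeR 4.0.16 (R 4.3.3) with TMM factors, filterByExpr at a minimum count of 10 and no covariate, two-sided, at a Benjamini-Hochberg threshold of 0.05. In simulated data it called changes at a small spread between samples and none, large ones included, at the spread seen here. The SE is the size of the log2 fold change over the square root of F. Ratios of counts, with 0.5 added, were compared by exact permutation tests. Named genes were the members, listed partners whose groups did not overlap or whose role the text gives, and the 5 genes most like the members. Members and lists were chosen with earlier results of these data known. Alternatives were other scalings, filters and tests (DESeq2 1.42.0, limma-voom 3.58.1), a replicate block, single files and each library left out. P-values measure only the spread between these samples. A marker gene counted in a list sum is not reported here by itself.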

Additional observations from a re-analysis of the deposited data

How the results depend on the processing

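All 6 members kept a negative log2 fold change under every alternative that gave a value. Their adjusted p stayed above 0.05, which is not taken as a sign of stability. In simulated data at this spread the main edgeR test called no change, either 4-fold or 16-fold. DESeq2, limma-voom and the other alternatives were not simulated. With at least 10 counts in every sample only gnal and ADCY3 ENSDARG00000077145 could be fitted, so the other 4 members have no value there. DESeq2 called 69 genes higher and 47 lower, where edgeR and limma-voom called 0 in either direction.

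Leaving out each library in turn gave ranges of -1.91 to -0.94 for OMP, -1.36 to -0.42 for gnal, -1.66 to -0.57 for cnga4, -4.26 to -1.58 for cngb1b, -3.60 to -1.24 for ADCY3 ENSDARG00000017437 and -0.94 to -0.26 for ADCY3 ENSDARG00000077145. By limma-voom the values were -3.76 for cngb1b and -3.40 for ADCY3 ENSDARG00000017437; the cause was not tested.

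Relative to OMP, the sign turned for cnga4 with the second file of each sample (0.67) and without control replicate 2 (0.04) or gallein replicate 2 (0.36), and for ADCY3 ENSDARG00000077145 without gallein replicate 2 (-0.056). Leaving out 1 library gave -0.38 to 0.36 and -0.06 to 2.83 for these ratios, -2.53 to -1.14 for cngb1b, -2.15 to -0.70 for ADCY3 ENSDARG00000017437 and 0.33 to 1.88 for gnal. In the second file OMP had 0 counts in gallein replicate 2, and the ratios were -0.67 for cngb1b and -0.34 for ADCY3 ENSDARG00000017437.

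Same-numbered samples did not deviate together (correlations 0.07, -0.12 and 0.18), so the numbers were not taken as pairs. With the replicate block edgeR called 0 genes, and the members ran from -3.40 for cngb1b to -0.61 for ADCY3 ENSDARG00000077145 (adjusted p = 0.999 for each), with a median of -0.44 for the partners. Counts of 0 to 4 in gallein replicate 2 limit 4 of the 6 members.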
